A study of Homo sapiens with 9 samples.

Results

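The genes examined here are 8 components of the system that starts blood clotting and dissolves clots at the cell surface, measured in clear cell renal cell carcinoma (ccRCC) cells. They are F3 (tissue factor), TFPI, TFPI2, THBD, SERPINE2, PLAU, PLAUR and PLAT, and they were chosen by name from a table of 38021 genes, with earlier results of these same libraries known. Their fold changes are therefore descriptions and not evidence that the system as a whole responds. RNA had been sequenced from 786-O cells, a human ccRCC line without functional VHL that keeps HIF2α (encoded by EPAS1) stable at normal oxygen. The cells carried a pLKO.1 lentiviral short hairpin RNA, selected with puromycin, against ARNT (shARNT group), against BMAL1 (shBMAL1 group) or without a target (shControl group), with 3 libraries in each. All 9 libraries thus share the VHL loss, the vector and the drug selection, and a single hairpin stands for each target. ARNT is the usual partner of HIF2α, and BMAL1 is a related clock protein that the study examined as a second partner. The question was which transcripts depend on each of them.

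Clotting starts when tissue factor, a membrane protein, meets factor VII in blood, and it is held back by the inhibitor TFPI. Thrombomodulin (THBD) turns thrombin from a clotting enzyme into an activator of the anticoagulant protein C. Clots and matrix are removed by plasmin, which is cut from plasminogen by urokinase (PLAU), held at the cell surface by its receptor PLAUR, or by tissue-type plasminogen activator (PLAT). The serpin SERPINE2 (protease nexin 1) blocks these enzymes and also thrombin. Tumour cells use the same proteins in invasion and in cancer-associated thrombosis.

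Libraries held 33793067 to 35444757 reads. ARNT had 2352 ± 184 normalised read counts in shControl and 1225 ± 23.2 in shARNT (SD, n = 3), and BMAL1, listed as ARNTL, had 761 ± 31.9 in shControl and 326 ± 29.2 in shBMAL1, so each target was lower in all 3 libraries of its hairpin. Each hairpin's libraries also lay below shControl for the other target, by less. ARNT had a log2 fold change of −0.23 ± 0.08 under shBMAL1 and ARNTL −0.26 ± 0.10 under shARNT (SE), both called, and either call was lost when single libraries were left out (shControl replicate 2 or shBMAL1 replicate 2 for ARNT, shControl replicate 2 or shARNT replicate 3 for ARNTL). The groups are therefore named by hairpin, and a change under one of them cannot be taken as a measure of that target alone. These small RNA differences do not show a loss of the other protein. On immunoblots of 786-O cells the paper reports slightly more ARNT protein after BMAL1 depletion, and slightly more BMAL1 protein after ARNT depletion. The EPAS1 transcript fell by 0.23 on the log2 scale under shARNT and was not called under shBMAL1 (−0.06 ± 0.07, SE). For HIF2α protein the paper reports no reduction by either depletion. The share of reads from mitochondrial genes ran from 5.46% to 7.14% in shControl, 7.59% to 8.74% in shARNT and 8.71% to 9.66% in shBMAL1, and its part in the results was not tested. All 8 renal epithelial markers on a fixed list reached a mean normalised count of 50. Of 8 endothelial markers, a cell type known for THBD, TFPI and PLAT, CDH5 and EMCN were at 0 in all 9 libraries and ESAM alone reached that mean. Leukocyte markers CD3E and MS4A1 and the fibroblast marker COL1A2 were also at 0, whereas CD68, CSF1R, COL1A1 and LUM passed the same mean. The leukocyte list summed to 7603 to 8353, 7056 to 7629.9 and 5573 to 7012 counts in shControl, shARNT and shBMAL1, and the fibroblast list to 241 to 304, 215 to 232 and 379.9 to 432, and their part in the results was not tested. In these bulk samples fewer cells that make a transcript and less of it per cell cannot be told apart. The labels call the samples biological replicates without saying how they were separated, so p-values measure the spread between these samples, which may be technical.

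Tissue factor, urokinase, its receptor and thrombomodulin were called lower under both hairpins. F3 fell most under shARNT, whereas THBD, PLAU and PLAUR fell more under shBMAL1, which also lowered PLAT. TFPI was not called in any comparison, TFPI2 was called higher under both hairpins, and SERPINE2 was higher under shARNT alone of the 2 hairpins. The shARNT calls of TFPI2, whose libraries overlapped shControl, and of THBD were lost with the replicate block and when single libraries were left out. A gene was called at a DESeq2 adjusted p under 0.1. Under shARNT 4 of the 8 genes were called lower, where 19.0% of the 15171 genes tested were, and 2 were called higher, where 16.5% were. Under shBMAL1 5 were called lower against 19.4% of 19047 genes, and 1 was called higher against 17.4%. All 8 genes passed the filter on low counts in every comparison. Their median log2 fold change was −0.25 under shARNT and −1.27 under shBMAL1, against 0.0028 and 0.016 over all genes tested. Because the genes were selected with these contrasts known, nothing is read from the difference between their counts and the background. Both hairpins were compared with the same 3 shControl libraries, so their values are set side by side only.

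**Figure D1:**
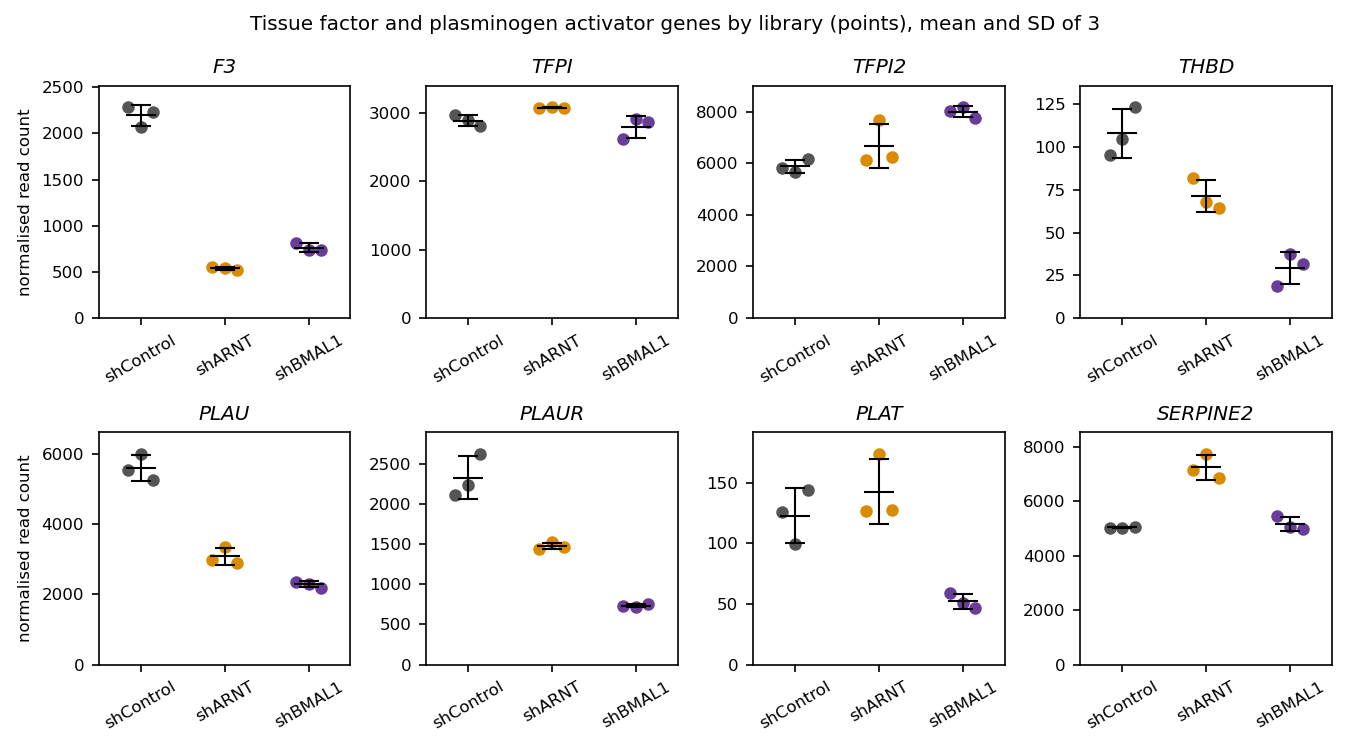
Normalised read counts (vertical axis, from 0, a separate scale in each panel) of the 8 genes in the 3 shControl, 3 shARNT and 3 shBMAL1 libraries. Points are libraries and bars are mean and SD. F3, THBD, PLAU and PLAUR lay lower in all 6 depleted libraries than in any shControl library, and PLAT lay lower in the 3 shBMAL1 libraries only.

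Tissue factor is the cell-surface receptor of factor VII and the trigger of clotting. F3 lies on the minus strand of chr1:94994729-95007315 (GRCh37, protein-coding). It had 2285, 2064 and 2233 normalised read counts in the 3 shControl libraries. These fell to 558, 537 and 519.8 in shARNT and to 817, 735 and 735 in shBMAL1. The 3 groups did not overlap, with shControl highest and shARNT lowest. F3 was thus 4.07-fold lower under shARNT (log2 fold change −2.02 ± 0.08, SE) and 2.88-fold lower under shBMAL1 (−1.53 ± 0.09). It was higher in shBMAL1 than in shARNT by 0.50 ± 0.10, and among the 8 genes it had the largest fall under shARNT.

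The 250 bases before the F3 start are shown because they hold a pair of AP-1 motifs, the letters TGANTCA that FOS and JUN family proteins are known to bind. The sequence is the RefSeq promoter, found once in GRCh37 at chr1:95007316-95007565, minus strand, and is written 5′ to 3′ with motif matches in capitals.
F3: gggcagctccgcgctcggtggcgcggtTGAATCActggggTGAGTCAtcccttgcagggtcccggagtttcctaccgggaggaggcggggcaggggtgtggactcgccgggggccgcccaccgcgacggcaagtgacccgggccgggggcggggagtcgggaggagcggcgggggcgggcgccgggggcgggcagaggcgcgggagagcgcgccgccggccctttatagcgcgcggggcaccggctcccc
The matches began at positions −223 and −210, counted back from −1 at the base before the start. The F3 window held neither ACGTG nor the related letters GCGTG, the core of the hypoxia response element to which HIF dimers bind. It also lacked CACGTG, the E-box to which BMAL1 with CLOCK binds, which says nothing about sites elsewhere.

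TFPI is the inhibitor that blocks the complex of tissue factor, factor VII and factor X. The gene lies on the minus strand of chr2:188328957-188430487. It had 2964, 2898 and 2806 normalised read counts in shControl, against 3072, 3086 and 3068 in shARNT and 2617, 2912 and 2864 in shBMAL1. The shARNT libraries all lay just above the shControl libraries, and the shBMAL1 libraries overlapped them. No change was called. The 95% interval of its log2 fold change was −0.02 to 0.20 under shARNT and −0.19 to 0.09 under shBMAL1. The ratio of F3 to TFPI, each as reads per length of exon and depth of library (RPKM), was 3.08 ± 0.174 in shControl, against 0.711 ± 0.0252 in shARNT and 1.11 ± 0.135 in shBMAL1 (SD, n = 3). The receptor that starts clotting therefore stood above its inhibitor per length in shControl and below it in shARNT. In shBMAL1 the ratio was 0.916 ± 0.112 with the longest transcript as length, so the order there depends on the length.

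TFPI2 is a related Kunitz-type inhibitor that acts mainly on plasmin and other matrix-degrading proteases rather than on tissue factor. The gene lies on the minus strand of chr7:93514708-93520065. It had 5814, 5675 and 6151 counts in shControl, against 6122, 7663 and 6223 in shARNT and 8038, 8171 and 7752 in shBMAL1. All 3 shBMAL1 libraries lay above every other library, whereas 1 shARNT library lay within the shControl range, 1 just above it and 1 far above it. The rise was 0.44 ± 0.06 on the log2 scale under shBMAL1 and 0.18 ± 0.08 under shARNT (SE). The call under shARNT was near the threshold (DESeq2 adjusted p 0.0503). It was lost without shARNT replicate 2, where the log2 fold change was 0.07 (adjusted p 0.463), and without shControl replicate 1 (adjusted p 0.152) or shControl replicate 2 (adjusted p 0.183). Over all alternatives the adjusted p ran from 0.0145 to 0.463. Its promoter holds an AP-1 motif at −87, and is shown because this gene rose where F3 fell (chr7:93520066-93520315, GRCh37, minus strand, RefSeq, match in capitals).
TFPI2: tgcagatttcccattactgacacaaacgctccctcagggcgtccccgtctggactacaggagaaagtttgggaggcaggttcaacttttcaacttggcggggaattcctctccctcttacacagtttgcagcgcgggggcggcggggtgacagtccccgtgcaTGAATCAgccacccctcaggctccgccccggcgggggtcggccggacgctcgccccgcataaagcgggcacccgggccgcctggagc

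Thrombomodulin, the endothelial receptor that redirects thrombin to protein C, was measured at low counts. THBD lies on the minus strand of chr20:23026270-23030309 and is annotated with a single exon model of 4040 bases. It had 95.6, 105 and 123 normalised read counts in shControl, against 81.8, 67.8 and 64.6 in shARNT and 18.9, 37.3 and 31.3 in shBMAL1. The 3 groups did not overlap. The log2 fold change was −1.89 ± 0.30 under shBMAL1 and −0.59 ± 0.24 under shARNT (SE), and shBMAL1 lay below shARNT by 1.29 ± 0.33. The endothelial marker list, of which ESAM alone reached a mean of 50, summed to 114 to 138 counts in shControl, 137 to 186 in shARNT and 71.5 to 96.8 in shBMAL1. It was thus lower with THBD and PLAT under shBMAL1, but not lower under shARNT, where THBD was. The part of this list in the result was not tested. The shARNT call (DESeq2 adjusted p 0.0435) was lost in 4 of the 6 fits that left out 1 library, namely shControl replicates 2 and 3 and shARNT replicates 2 and 3, with adjusted p from 0.107 to 0.214. Over all alternatives it ran from 0.0171 to 0.214.

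Urokinase is the protease that cuts plasminogen to plasmin at the cell surface. PLAU lies on the plus strand of chr10:75668935-75677254. It had 5540.0, 6019.6 and 5266 counts in shControl, against 2980.4, 3366 and 2912 in shARNT and 2365, 2308 and 2194 in shBMAL1. The groups did not overlap and fell in that order. PLAU was 1.81-fold lower under shARNT (log2 fold change −0.86 ± 0.07, SE) and 2.45-fold lower under shBMAL1 (−1.30 ± 0.07). C10orf55 on the opposite strand covers 915 exon bases, or 31% of the exon bases of PLAU. Whether the counting used strand is not given in the sources used here, so reads of the pair cannot be told apart in those bases. C10orf55 had 31.9 ± 5.12 normalised counts in shControl, against 24.6 ± 3.59 in shARNT and 16.2 ± 4.85 under shBMAL1 (SD, n = 3). It was thus low throughout, and it was called lower under shBMAL1 (−0.98 ± 0.45, SE, DESeq2 adjusted p 0.088) as PLAU was.

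The urokinase receptor holds the enzyme at the membrane and also signals through integrins. PLAUR lies on the minus strand of chr19:44150247-44174699. It had 2113, 2229 and 2623 counts in shControl, against 1439, 1520.3 and 1464 in shARNT and 734, 713 and 747 in shBMAL1. The groups did not overlap. The log2 fold change was −0.65 ± 0.08 under shARNT and −1.67 ± 0.09 under shBMAL1 (SE), and the direct difference between the hairpins was −1.01 ± 0.08. The enzyme and its receptor thus were both lowest in shBMAL1. The RPKM ratio of PLAU to PLAUR was 3.69 ± 0.574 in shControl, against 3.16 ± 0.172 in shARNT and 4.73 ± 0.258 in shBMAL1 (SD, n = 3). The ratio of shARNT overlapped that of shControl, and the shBMAL1 libraries lay above both groups, a difference that was not tested. With the longest transcript as length the ratios were 1.48 ± 0.230, 1.27 ± 0.0689 and 1.90 ± 0.103, since another length scales the ratio of every library by the same factor.

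The promoters of this lowered pair are shown because PLAUR is the sole window with both an AP-1 motif and hypoxia response element letters. Both are RefSeq windows found once in GRCh37, written 5′ to 3′ with matches in capitals, where CACGC is GCGTG read from the other strand. PLAUR lies at chr19:44174322-44174571 on the minus strand. The PLAU window at chr10:75670640-75670889 on the plus strand belongs to the downstream member of a pair of annotated starts.
PLAUR: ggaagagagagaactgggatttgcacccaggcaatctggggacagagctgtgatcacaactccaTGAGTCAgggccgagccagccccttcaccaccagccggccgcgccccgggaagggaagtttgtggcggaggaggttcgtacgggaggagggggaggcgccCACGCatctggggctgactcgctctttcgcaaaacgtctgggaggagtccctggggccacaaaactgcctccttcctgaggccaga
PLAU: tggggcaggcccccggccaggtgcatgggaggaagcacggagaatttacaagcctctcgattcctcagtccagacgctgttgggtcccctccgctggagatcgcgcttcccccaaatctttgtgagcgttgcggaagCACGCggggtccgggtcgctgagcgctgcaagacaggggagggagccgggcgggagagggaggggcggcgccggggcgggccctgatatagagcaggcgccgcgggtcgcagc
In PLAUR the AP-1 motif began at −186 and GCGTG at −86, and a further ACGTG began at base 11 of the transcript. In PLAU the GCGTG match began at −113. The upstream PLAU start had no match to any of the motifs in its window.

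Tissue-type plasminogen activator, which works mainly on fibrin in the circulation, was low in these cells. PLAT lies on the minus strand of chr8:42032236-42065227. It had 126, 99.0 and 144 normalised read counts in shControl, against 127, 174 and 127 in shARNT and 58.6, 50.4 and 47.0 in shBMAL1. The shBMAL1 libraries lay wholly below the others, and shARNT overlapped shControl. PLAT was 2.36-fold lower under shBMAL1 (log2 fold change −1.24 ± 0.25, SE) and was not called under shARNT (0.22 ± 0.21, 95% interval −0.20 to 0.64). The shARNT value ran from 0.052 without shARNT replicate 2 to 0.35 without shControl replicate 3, with no call. The direct difference was −1.46 ± 0.24, with every shBMAL1 library below every shARNT library.

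Protease nexin 1 inhibits thrombin, urokinase and plasmin near the cell surface. SERPINE2 lies on the minus strand of chr2:224839762-224904035. It had 5032, 5016 and 5072 counts in shControl, against 7148, 7749.8 and 6843 in shARNT and 5474, 5053 and 4991 in shBMAL1. The shARNT libraries lay wholly above both other groups, which overlapped. The log2 fold change was 0.53 ± 0.06 under shARNT and 0.04 ± 0.06 under shBMAL1 (SE, 95% interval −0.09 to 0.16). SERPINE2 was lower in shBMAL1 than in shARNT by 0.49 ± 0.07.

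**Figure D2:**
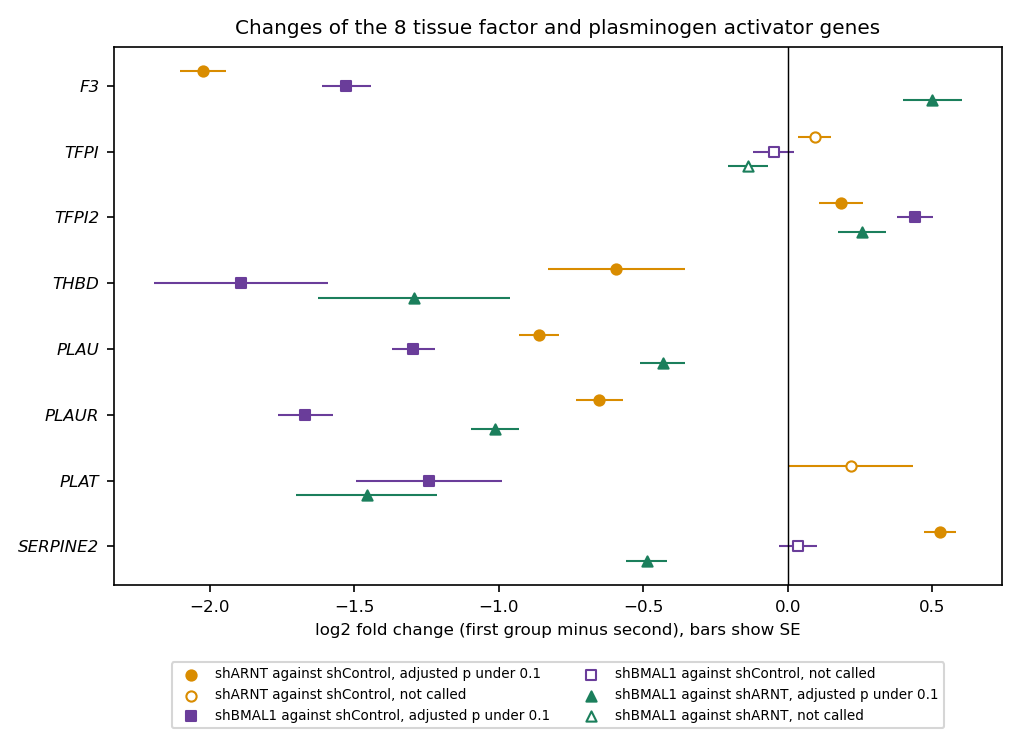
Log2 fold changes (horizontal axis) of the 8 genes in 3 comparisons, with bars of 1 SE from DESeq2. Filled symbols passed an adjusted p of 0.1 and open symbols did not. Of the lowered genes, F3 lay further left under shARNT, whereas THBD, PLAU, PLAUR and PLAT lay further left under shBMAL1.

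The direct comparison of shBMAL1 with shARNT tests the difference between the hairpins. It called 5 of the 8 genes lower in shBMAL1 (THBD, PLAU, PLAUR, PLAT and SERPINE2), where 18.6% of 17728 genes tested were called lower, and 2 higher (F3 and TFPI2), where 17.8% were. TFPI was not called (−0.14 ± 0.07, SE, 95% interval −0.28 to 0.00046). The median of the 8 genes was −0.46, against 0.0076 over all genes tested. With the smallest size among the called genes, TFPI2 rose by 0.26 ± 0.08, and this call was lost without shARNT replicate 1 (0.20). For THBD and PLAT, direct differences of −1.29 and −1.46 rested on at most 174 normalised counts in a library, and their SE of 0.33 and 0.24 were the widest of the 8.

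Levels of different genes were compared per length, as RPKM over all annotated exon bases. In shControl TFPI2 was highest (68.6 ± 2.99), followed by PLAU (54.2 ± 3.44), F3 (21.7 ± 1.36), SERPINE2 (16.0 ± 0.211), PLAUR (14.8 ± 1.64), TFPI (7.03 ± 0.253), THBD (0.761 ± 0.0953) and PLAT (0.451 ± 0.0840, SD, n = 3). SERPINE2 and PLAUR did not differ beyond their spread, and the other neighbours in this order did not overlap. In shBMAL1 F3 stood at 7.71 ± 0.354, TFPI at 6.98 ± 0.497 and PLAUR at 4.79 ± 0.145. Of the activators, PLAU stood far above PLAT in every group. The order depends on the length used. With the longest annotated transcript only 3 of the 8 genes kept their place, and PLAUR moved to the third place with 41.1 ± 4.55. In shBMAL1 that length gave F3 9.68 ± 0.445, TFPI 10.6 ± 0.758 and PLAUR 13.3 ± 0.401, so the order of these genes there turned with the length.

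**Figure D3:**
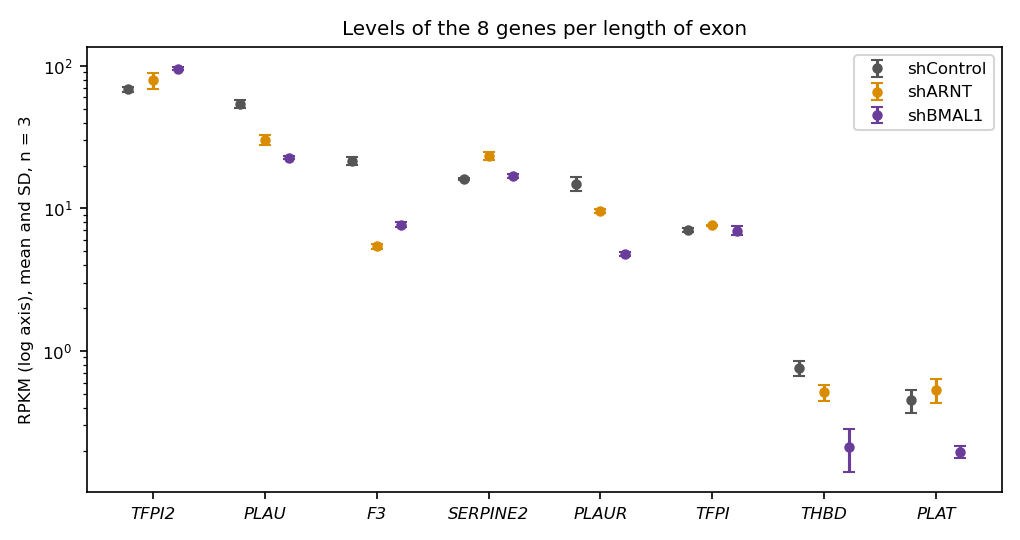
RPKM (vertical log axis, reads per length of exon and depth of library) of the 8 genes in each group, with mean and SD of 3 libraries, ordered by the shControl level. Over all exon bases TFPI2 and PLAU led in all 3 groups, and THBD and PLAT lay lowest, with shControl means of 0.761 and 0.451.

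Other genes of the system came from a list of 47, of which 20 had counts high enough to be tested under shARNT and 26 under shBMAL1. Of these, 6 were called lower and 3 higher under shARNT, where 19.0% and 16.5% of all genes tested were. Under shBMAL1 5 were lower and 9 higher, where 19.4% and 17.4% of all genes were. Of those higher, FGB, FGG and SERPINA10 passed the filter on low counts through the shBMAL1 libraries alone, here and between the hairpins. They were not tested under shARNT, so the numbers called higher under each hairpin are not alike. The median log2 fold change of those tested was −0.08 and 0.09, against 0.0028 and 0.016 over all genes. Between the hairpins 3 were lower and 8 higher in shBMAL1, of 25 tested, where 18.6% and 17.8% of all genes were, and their median was 0.10, against 0.0076 over all genes.

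SERPINF2 (α2-antiplasmin), the chief inhibitor of plasmin, was called under shBMAL1 alone of the 2 hairpins. It had 44.3, 44.0 and 36.4 counts in shControl, against 32.2, 38.3 and 35.8 in shARNT and 643, 589 and 567 in shBMAL1. The shBMAL1 libraries stood far above the rest, with a log2 fold change of 3.85 ± 0.18 (SE), and the difference from shARNT was 4.08 ± 0.19. GAS6, a vitamin K dependent ligand of the AXL receptor, was lower under both hairpins, by 0.73 ± 0.06 and 1.24 ± 0.08, and lower in shBMAL1 than in shARNT by 0.51 ± 0.08. Among the protease-activated receptors, through which thrombin and tissue factor complexes signal, F2R (the thrombin receptor PAR1) was higher under shARNT (0.62 ± 0.08) and shBMAL1 (0.29 ± 0.10). The shBMAL1 call of F2R was lost without shBMAL1 replicate 1, where the log2 fold change was 0.18. F2RL1 (PAR2, cut by tissue factor with factor VII) was not called, with 0.11 ± 0.10 and 0.10 ± 0.10. F2RL2 was not called either (−0.08 ± 0.32 and −0.54 ± 0.31), and F2RL3 had too few reads to be tested (11 reads in the 9 libraries).

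The remaining calls of the 47 genes fell outside the rule for naming genes, and these are named after their values were seen. Under both hairpins PLGRKT (a plasminogen receptor) and LRP1 (which clears protease and inhibitor complexes) were lower, and F8 (factor VIII) and GGCX (the carboxylase of vitamin K dependent proteins) were higher. MRC2, a collagen receptor that binds the urokinase receptor, fell by 0.34 ± 0.06 under shARNT and rose by 0.50 ± 0.07 under shBMAL1, with a direct difference of 0.84 ± 0.07. PROCR (the protein C receptor) and VKORC1 (which recycles vitamin K) were called lower under shARNT alone of the 2 hairpins. The direct difference was called for VKORC1 (0.31 ± 0.09) and not for PROCR (0.15 ± 0.08). Under shBMAL1 F12 (factor XII) and ENO1 (an enolase that also binds plasminogen) were called lower, and PROS1 (protein S), FGB, FGG and SERPINA10 higher. The calls of PLGRKT, F8, F12 and PROS1 were lost when single libraries were left out. SERPINA10 had 32 reads in the 9 libraries, got no adjusted p without shBMAL1 replicate 1, and was not kept by edgeR's filter or that of at least 10 counts in 3 libraries. No read of F7, F9, F13A1, F13B, KNG1, HRG or A2M was counted in any library, where fewer than 3 reads per library could go unseen, and plasminogen (PLG) had 1 read in all. The transcript of factor VII, the partner of tissue factor, was thus not detectable at this depth.

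Of 15 transcription factors that are known to act on F3, PLAU, PLAUR or THBD in other cells, 8 were called lower and none higher under shARNT, against 19.0% and 16.5% of all genes tested. Under shBMAL1 10 were lower and 2 higher, against 19.4% and 17.4%. Their median log2 fold changes were −0.22 and −0.46, against 0.0028 and 0.016 over all genes. No factor was higher under shARNT at an unadjusted DESeq2 p under 0.05 (0 of 15) or by edgeR (0 of 15). The AP-1 member FOSL1 had 11868 ± 1797 counts in shControl, against 6071 ± 268 in shARNT and 4547 ± 458 in shBMAL1 (SD, n = 3), with log2 fold changes of −0.96 ± 0.13 and −1.39 ± 0.10 (SE). Its partner JUN was lower by 0.64 ± 0.09 and 0.66 ± 0.10. No change of FOS, FOSL2 or JUND was called under either hairpin. KLF4, a regulator of thrombomodulin in endothelium, was lower by 0.63 ± 0.14 and 1.25 ± 0.15, and the related KLF2 was called under shBMAL1 alone of the 2 hairpins (−0.79 ± 0.23 against −0.34 ± 0.22 under shARNT, and a direct difference of −0.45 ± 0.25 that DESeq2 did not call and edgeR's test did). Under shARNT KLF2 ranged from −0.56 to −0.18 as libraries were left out and was called without shARNT replicate 3 (−0.56), so its call there rests on which libraries enter. The difference of KLF4 between the hairpins was −0.61 ± 0.16. ETS1 was lower by 0.36 ± 0.07 and 0.74 ± 0.08, KLF6 by 0.37 ± 0.05 and 0.65 ± 0.07, and ETS2 by 0.22 ± 0.07 and 0.59 ± 0.08. EGR1, a serum-induced factor known to act on F3, rose under shBMAL1, from 230.3 ± 6.97 to 1121 ± 145 counts (2.28 ± 0.12), and was not called under shARNT (0.16 ± 0.15), with a direct difference of 2.12 ± 0.13. Named after their values were seen, NFKB1 and SP1 were also called lower under both hairpins, and RELA lower and JUNB higher under shBMAL1. The SP1 and JUNB calls were lost when single libraries were left out, and that of ETS2 under shARNT without shARNT replicate 1 (−0.18).

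**Figure D4:**
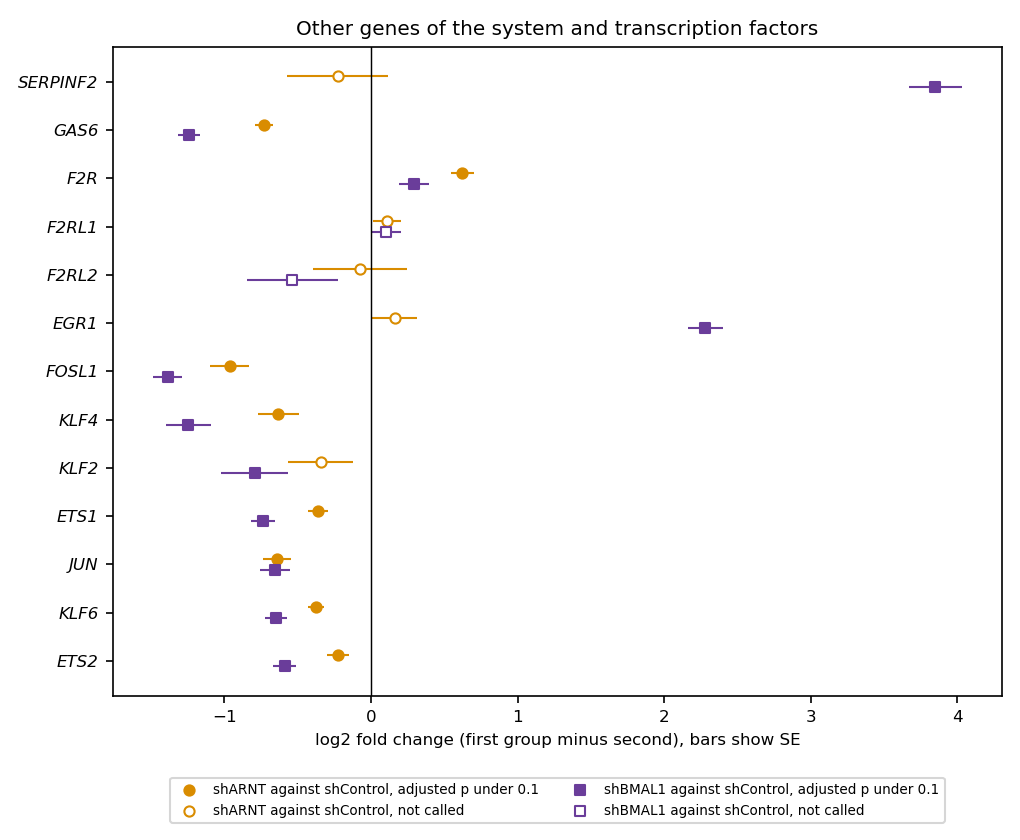
Log2 fold changes (horizontal axis, bars of 1 SE) of other genes of the clotting and plasminogen system (top 5) and of transcription factors (bottom 8) under shARNT and shBMAL1, each against the same 3 shControl libraries. Filled symbols passed an adjusted p of 0.1. GAS6 lay left of 0 under both hairpins, and SERPINF2 (3.85) and EGR1 (2.28) lay far right under shBMAL1 only.

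The motif letters were counted on both strands of 8 RefSeq promoter windows that were present for 6 of the 8 genes, each with 250 bases before and 50 after the start. TGANTCA was in the windows of F3, TFPI2 and PLAUR, and in 7.71% of 35116 windows of all genes. CACGTG was in 1 window, of SERPINE2, against 7.26% of all windows. ACGTG was in 2 windows (SERPINE2 and PLAUR) against 21.4%, and GCGTG was in 3 (the other SERPINE2 window, PLAU and PLAUR) against 36.5%. The F3, TFPI2 and PLAUR genes with an AP-1 motif did not share a direction, since TFPI2 rose while the others fell. The SERPINE2 promoter with the E-box, at −87, is shown as the sole window with these letters (chr2:224896196-224896445, GRCh37, minus strand, match in capitals).
SERPINE2: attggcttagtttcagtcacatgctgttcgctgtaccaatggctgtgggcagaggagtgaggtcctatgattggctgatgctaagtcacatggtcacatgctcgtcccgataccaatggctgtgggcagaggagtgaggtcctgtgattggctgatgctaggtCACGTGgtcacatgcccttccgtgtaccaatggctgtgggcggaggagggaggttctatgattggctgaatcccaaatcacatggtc
CACGTG contains ACGTG on both strands, so the E-box accounts for the ACGTG matches of this window as well. A match is a description of letters and not of binding, which was not measured in these libraries.

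**Figure D5:**
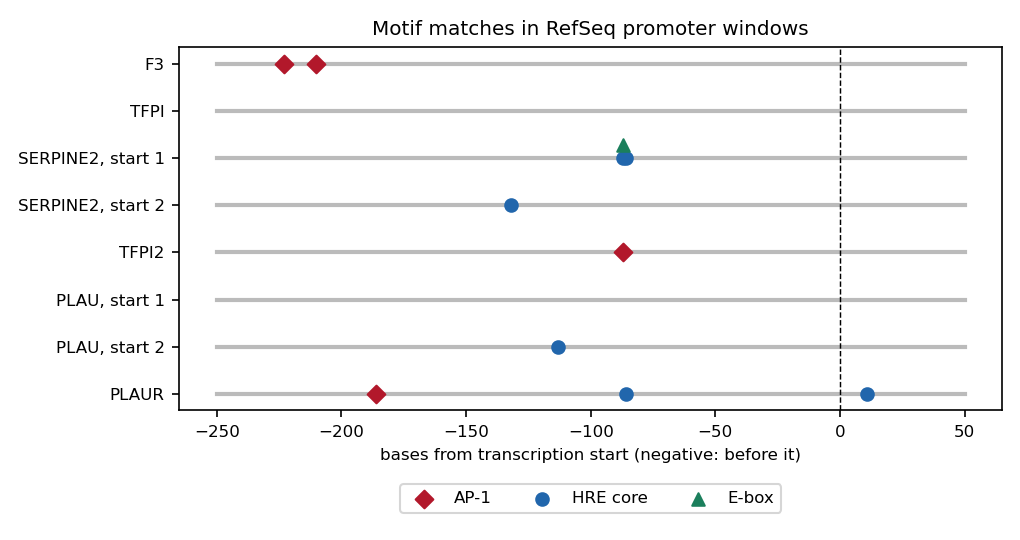
Positions of motif matches (horizontal axis, bases from the transcription start) in 8 RefSeq promoter windows of 6 genes. Diamonds are AP-1 letters, circles hypoxia response element (HRE) cores and triangles E-boxes. F3 held 2 AP-1 matches, at −223 and −210, and TFPI had no match.

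Genes with the most similar pattern were sought among 12919 genes whose mean normalised count reached 50, for each gene with a log2 fold change of at least 1 in size under either hairpin. Likeness was the root mean square difference of log2 values, each relative to its shControl mean, over the 9 libraries. Nearest to F3 were IFI44L (0.164) and IFI6 (0.202), both lower under shARNT than under shBMAL1 as F3 was. PLAU was nearest to USP18 (0.091) and IFI44 (0.0924), and PLAUR to ADRA1B (0.0703) and TMEM158 (0.114). THBD was nearest to RBM24 (0.181) and OASL (0.27), and PLAUR stood in the seventh place in its ranking, at 0.294. PLAT was nearest to NACC2 (0.199) and S1PR3 (0.2003). PLAU stood at place 44 in the ranking for PLAUR, and F3 stood at place 1734, at a difference of 0.804. In the ranking for F3, PLAU stood at place 84 and PLAUR at place 145, so a place depends on the gene that the ranking starts from. The 5 lowered genes thus followed at least 3 patterns, with F3 lowest in shARNT, THBD, PLAU and PLAUR lowest in shBMAL1 after an intermediate level in shARNT, and PLAT lower in shBMAL1 alone. The intermediate level of THBD is uncertain, since its shARNT call was lost when single libraries were left out.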

How the data were processed

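The authors deposited estimated counts, which are linear read totals of each gene, in which 0.009 stood for 0 and was set to 0. The methods name GRCh37, SeqMan NGen and ArrayStar, whereas the submitters' processing notes name hg38, STAR and DESeq2, so the build of the counts is uncertain. Annotation and strand setting of the counting are not given in the sources used here. Rows of the same name were added (53 rows) and values rounded, and the values of the 8 genes were whole as deposited.

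Each comparison was fitted with DESeq2 1.42.0 (R 4.3.3) on its 6 libraries (Wald test, two-sided, independent filtering and Benjamini-Hochberg adjustment at 0.1). Fold changes are log2 with SE. Normalised read counts are counts over size factors of all 9 libraries. edgeR 4.0.16 was an alternative. The procedure was tested on simulated data. Gene coordinates and lengths are GENCODE v44lift37, 1-based.

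Members and lists were chosen with earlier results of these data known. One item is not reported here and was left out of the lists. Named beside the 8 genes are the protease-activated receptors and listed genes called with a mean of at least 50 and a log2 change of at least 0.58 in either knockdown, at most 12 per list.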

Additional observations from a re-analysis of the deposited data

How the results depend on the processing

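The alternatives were edgeR's quasi-likelihood test, TMM size factors in DESeq2, a filter of at least 10 counts in 3 libraries, an adjusted p under 0.05, a fold change of at least 1.5, a single fit of 9 libraries, the replicate number as a block, and each library left out in turn. The adjusted p under 0.05 and the 1.5-fold threshold were left out of the count of refits, and the calls lost at them are given below. Of 264 refits of the 8 genes under the other alternatives, 252 kept direction and side of the threshold, 10 lost a call, 1 gained one (TFPI between the hairpins, −0.14, in the single fit of 9 libraries) and 1 changed sign. The lost calls in these refits were those of TFPI2 and THBD under shARNT and of TFPI2 between the hairpins. The sign change was SERPINE2 under shBMAL1, not called in any fit, with −0.0072 to 0.061 as libraries were left out.

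The number of the 8 genes called higher under shARNT was 1 at an adjusted p under 0.05, 0 at 1.5-fold, and 1 to 2 as libraries were left out. Under shBMAL1 it was 0 at 1.5-fold. Between the hairpins it was 0 at 1.5-fold and 1 to 2 as libraries were left out, and the number called lower was 3 at 1.5-fold. The call lost at an adjusted p under 0.05 was that of TFPI2 under shARNT. At 1.5-fold the lost calls were those of SERPINE2 and TFPI2 under shARNT and of TFPI2 under shBMAL1. Between the hairpins F3, TFPI2, PLAU and SERPINE2 lost theirs at 1.5-fold. At 1.5-fold, the pathway genes called lower and higher were 1 and 1 under shARNT, 1 and 4 under shBMAL1, and 0 were lower between the hairpins. F2RL2 under shARNT ranged from −0.50 to 0.13 and F2RL1 under shBMAL1 from −0.0095 to 0.17 as libraries were left out, with no call. With the longest transcript as length, 3 of the 8 genes kept their place in the order of levels. With the 250 bases before the start alone, 1 promoter held ACGTG.

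Samples that share a replicate number did not deviate together (correlations from −0.15 to 0.11), so the numbers do not pair the samples. With the replicate block, 1 of the 8 genes was called higher under shARNT, TFPI2 had 0.18 (adjusted p 0.396) and THBD −0.59 (adjusted p 0.158). The block also ended the calls of F8 under both hairpins, SP1 under shARNT and JUNB under shBMAL1, and no other call among the named genes that were refitted. The call of C10orf55 under shBMAL1, which was near the threshold, was not refitted under any alternative. Low counts limit THBD and PLAT most.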

Other observations

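Transcripts of the fibrinogen chains, the substrate of thrombin and the target of plasmin, appeared in shBMAL1 libraries at low counts. They were singled out after their values were seen. FGB, the β chain, had 2.01, 3.00 and 0.00 normalised read counts in shControl, against 1.95, 1.96 and 5.96 in shARNT and 43.7, 44.3 and 48.0 in shBMAL1. FGG, the γ chain, had 0.00, 0.00 and 1.01 in shControl, against 2.92, 1.96 and 0.00 in shARNT and 20.9, 49.4 and 32.3 in shBMAL1. Both were called higher under shBMAL1, but neither had enough reads to be tested under shARNT. They passed the filter on low counts through the shBMAL1 libraries alone. Neither the calls nor the gap between the groups is therefore support for a rise. FGA, the α chain, had 10 reads in the 9 libraries and was not tested. SERPINA10, the inhibitor of factor X that acts with protein Z, had 1.01, 0.00 and 0.00 counts in shControl. It had 0.00, 0.00 and 0.994 in shARNT and 18.9, 7.05 and 3.92 in shBMAL1, and the same limit holds for its call. The counts of the control libraries are too few for a fold change of these genes to be stated.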
